A study of Mus musculus with 12 samples.

Results

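Interferon response genes were described in ankle joints of mice with serum-transferred arthritis. The set held 40 genes in 7 functional groups, which were 3 nucleic acid sensors, 4 transcription factors, 18 antiviral effectors, 3 Ifitm genes, 7 GTPases, 3 genes of the immunoproteasome and peptide transporter, and 2 chemokines. Each gene was represented by the array feature annotated with its symbol alone and, where there were several, by that with the highest mean signal. Of the 28853 features on the array, this gave a feature to 35 of the 40 genes, and 34 of them passed the filter on low signal, a mean log2 signal of at least 5.3 over the 12 arrays. Mx2 had a mean below this value. Isg15 and Gbp2 were annotated only together with another gene, Igtp and Irgm2 shared a feature, and Ifi44 had no feature of its symbol, so that no value is given for these genes.

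Ankle joints came from 3 mice in each of 4 groups of C57BL/6 mice, namely arthritic Mmp8-/- mice, arthritic Mmp8+/+ mice, Mmp8-/- control mice and Mmp8+/+ control mice. Arthritic mice of both genotypes received 150 µl of serum from K/BxN mice, which develop arthritis spontaneously, into the peritoneum on days 0 and 2, and were killed on day 7. Control mice had no arthritis. All were described as male, and arthritis was induced at an age of 6 to 8 weeks. Mmp8 encodes collagenase-2, mainly a neutrophil enzyme, and was deleted in every tissue. Each array held the RNA of the whole ankle of 1 mouse, with cartilage, bone, synovium and the other tissues around it, so that fewer cells of a type and less RNA per cell cannot be told apart. In this model the disease is carried by antibodies in the serum.

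Interferons are secreted by cells that sense viral or other foreign nucleic acid and by activated lymphocytes. Type I interferons signal through Stat2 and Irf9 to a promoter element called ISRE, whereas interferon gamma acts on an element called GAS. Both raise overlapping sets of genes, which block viral replication, attack the vacuoles of intracellular pathogens, increase the presentation of peptides on class I molecules and attract T cells. In joints, synovial fibroblasts, macrophages and endothelium can all mount this response.

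Promoters of the genes were read from RefSeq (GRCm38.p6), as windows of 300 bases, from 250 before to 50 after the start of the gene. A window was found for 31 of the 40 genes, and not for Usp18, Oas2, Gbp4, Rtp4, Zbp1, Parp14, Iigp1, Parp9 and Mx2. Gbp3, Irf1, Ifit2 and Irf9 each had 2 windows, and a match in either was counted for the gene. The matches of Gbp3, Irf1 and Ifit2 lay in the window further upstream, which is the one printed for Gbp3. Windows were searched on both strands for a pair of GAAA with any 2 bases between them, a core of the ISRE, and for TTCNNNGAA, the core of the GAS. The ISRE letters stood in 16 of the 31 genes, 45.7% of their 35 windows, against 1131 of 32851 windows of all genes (3.44%). The GAS letters stood in 8 genes, 22.9% of the windows, against 2726 of all windows (8.3%). Both were found in 4 genes, overlapping each other in Bst2 and Ifitm3, and neither in 11 genes. All 5 GTPases with a window, Gbp2, Gbp3, Igtp, Irgm1 and Irgm2, held the ISRE letters. Of the 3 immunoproteasome and transporter genes none held them, and Psmb8 held the GAS letters. Psmb9 and Tap1 are transcribed away from each other, and their windows shared 275 bases. A match is a description of the letters and not evidence that a factor binds there. The windows below are given because their genes moved differently in arthritis. Gbp3 (chr3:142559794-142560093, + strand) and Irgm1 (chr11:48871371-48871670, - strand) are GTPases that fell, Ifit1 (chr19:34640639-34640938, + strand) is an antiviral effector that did not pass the test, and Ifitm1 (chr7:140967826-140968125, + strand) rose. Capitals mark the ISRE letters on either strand. Gbp3 and Irgm1 each held 2 overlapping matches, Ifit1 held 2 separate matches, and the window of Ifitm1 held no match to either element. These windows do not stand for the other genes. Ifitm2 and Ifitm3, which rose in Mmp8+/+ mice, held the ISRE letters. Irf1, which fell in Mmp8-/- mice, held the GAS letters and not those of the ISRE. Whether the letters go with the direction of change was not tested.
Gbp3: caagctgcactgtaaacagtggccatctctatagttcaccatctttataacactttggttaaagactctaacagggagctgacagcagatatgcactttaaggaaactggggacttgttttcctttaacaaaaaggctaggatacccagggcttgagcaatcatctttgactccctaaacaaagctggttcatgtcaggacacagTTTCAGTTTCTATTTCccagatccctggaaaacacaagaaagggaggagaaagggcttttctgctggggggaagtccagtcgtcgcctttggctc
Irgm1: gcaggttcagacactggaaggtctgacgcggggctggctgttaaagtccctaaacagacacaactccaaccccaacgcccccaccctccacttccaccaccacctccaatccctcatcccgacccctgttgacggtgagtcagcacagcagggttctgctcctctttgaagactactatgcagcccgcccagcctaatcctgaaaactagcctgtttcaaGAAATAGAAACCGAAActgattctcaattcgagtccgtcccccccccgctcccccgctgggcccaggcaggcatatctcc
Ifit1: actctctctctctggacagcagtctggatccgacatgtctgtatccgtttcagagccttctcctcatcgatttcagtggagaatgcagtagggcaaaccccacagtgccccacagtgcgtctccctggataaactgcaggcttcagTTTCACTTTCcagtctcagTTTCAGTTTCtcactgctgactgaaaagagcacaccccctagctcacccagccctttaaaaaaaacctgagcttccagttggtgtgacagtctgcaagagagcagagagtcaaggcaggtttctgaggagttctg
Ifitm1: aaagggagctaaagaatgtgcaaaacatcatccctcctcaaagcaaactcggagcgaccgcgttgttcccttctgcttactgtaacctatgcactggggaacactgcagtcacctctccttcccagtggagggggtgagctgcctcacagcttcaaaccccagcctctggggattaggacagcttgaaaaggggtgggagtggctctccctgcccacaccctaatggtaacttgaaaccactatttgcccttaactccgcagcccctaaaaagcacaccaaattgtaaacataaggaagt

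The labels were first checked on the arrays. Mmp8 signal was between 4.64 and 5.54 on 5 of the 6 arrays of Mmp8-/- mice and between 10.21 and 11.16 in Mmp8+/+ mice, but it was 10.65 on the array labelled Mmp8-/- control mouse 2. Xist, an RNA of the inactive X chromosome in female cells, had signals of 10.92 in Mmp8-/- control mouse 1 and 10.42 in Mmp8+/+ control mouse 1, against 4.66 to 5.41 on the other arrays. Eif2s3y, a gene of the Y chromosome, had signals of 4.16 and 4.02 on the same 2 arrays, against 7.94 to 9.27 on the others. Both genes thus read as female on these 2 arrays, unlike the description of the mice. Both arrays are of control mice, so that sex was not balanced between arthritic and control mice. Accordingly, results are also given without these 2 arrays, and without these and the array labelled Mmp8-/- control mouse 2. The ankle was checked by its markers, and the mean log2 signal of 5 cartilage genes was between 8.44 and 9.53 and that of 6 synovial fibroblast genes between 11.07 and 11.77 over the 12 arrays.

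Arthritis was associated with lower signal of the GTPases and Cxcl9 and with higher signal of the Ifitm genes, whereas most antiviral genes and the immunoproteasome genes showed small differences. In Mmp8-/- mice, 2 of the 34 tested genes rose and 7 fell at a false discovery rate (FDR) of 5% (limma, Benjamini-Hochberg over 18479 features). In this comparison 21.6% of all tested features passed the test, as 7.92% rose and 13.7% fell. In Mmp8+/+ mice 4 genes rose and 8 fell, against 7.2% and 11.7% of all features (18.9% in either direction). Over the 34 genes the median change on the log2 scale was -0.29 in Mmp8-/- mice and -0.27 in Mmp8+/+ mice, compared with -0.01 and 0.01 over all tested features. Averaged over genotypes, 6 genes rose and 15 fell, when 19.5% of all features rose and 22.7% fell (42.1% in either direction), and the median of the 34 genes was -0.33. Values of the 3 arthritic mice lay entirely below those of the 3 control mice for 11 of the 34 genes in Mmp8-/- mice (21.0% of all features) and for 18 in Mmp8+/+ mice (22.3% of all features), and entirely above them for 3 genes (18.3% of all features) and 6 genes (18.6% of all features). The 6 arthritic mice of both genotypes lay below all 6 control mice for 7 genes, Iigp1, Gbp4, Gbp3, Irgm1, Cxcl9, Ifit2 and Irf1 (12.1% of all features), and above them for 3, Ifitm1, Oas2 and Oasl1 (7.44% of all features).

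Ifit2, Gbp3, Gbp4, Iigp1, Irgm1 and Cxcl9 fell in both genotypes, and Ifitm1 rose in both. Irf1 and Oasl1 passed the test in Mmp8-/- mice alone, and Oas2, Rsad2, Bst2, Ifitm2 and Ifitm3 in Mmp8+/+ mice alone. The other 20 genes passed it in neither. The sign of the change was the same in both genotypes for 31 of the 34 genes, 22 below and 9 above 0, while it was the same for 82.2% of all tested features. Without the 2 Xist arrays, 6 of these genes passed the test in each genotype, 5 of them lower and 1 higher, while the share of all features that passed was 9.34% in Mmp8-/- mice and 10.5% in Mmp8+/+ mice. Without these and the array labelled Mmp8-/- control mouse 2, 2 genes remained below their controls at this FDR in Mmp8-/- mice, Gbp4 and Cxcl9, for which 1 control was left and was assumed to vary like the other groups, and 2.62% of all features passed. In Mmp8+/+ mice 6 remained, namely Gbp3, Gbp4, Iigp1, Irgm1, Cxcl9 and Ifitm1, when 9.28% of all features passed. After quantile normalization of the tested features, the split was 3 higher and 6 lower in Mmp8-/- mice, 6 and 6 in Mmp8+/+ mice, and 7 and 8 in the average.

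**Figure D1:**
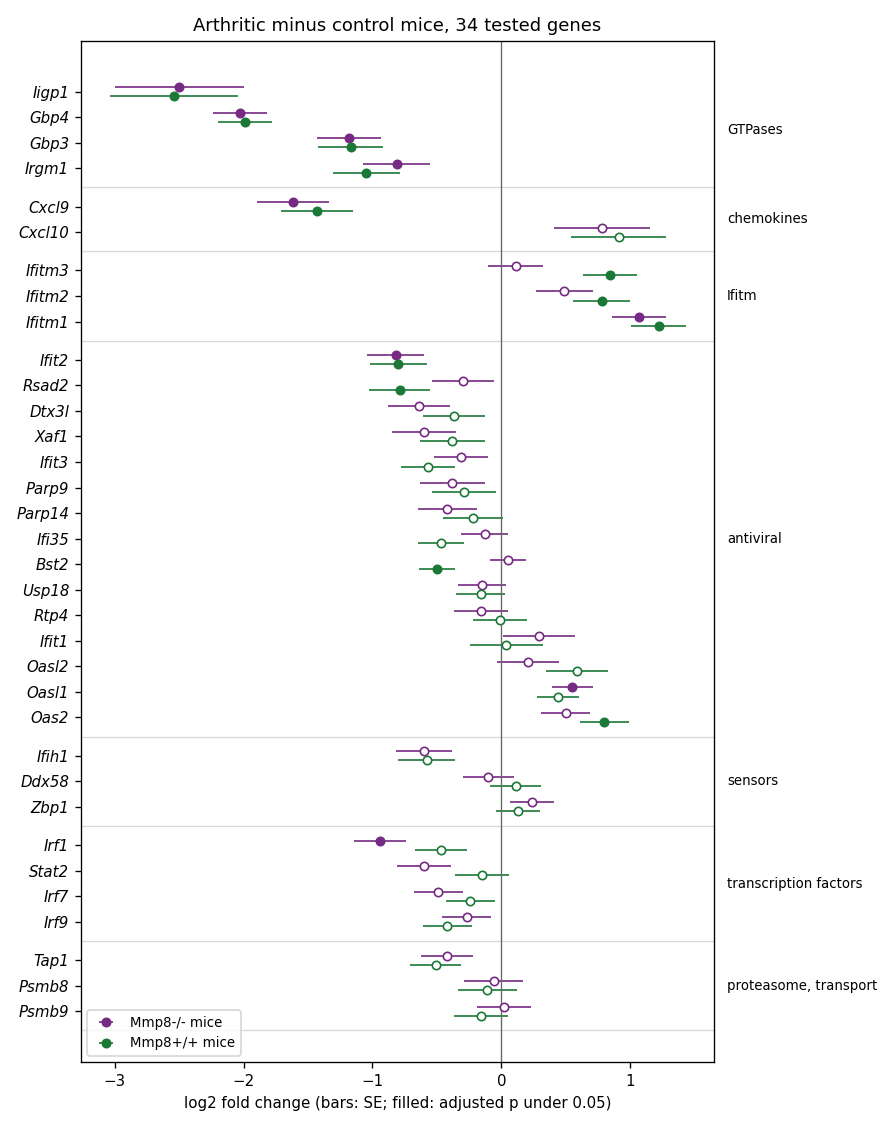
Log2 fold change of arthritic over control mice (horizontal axis, bars are SE) for the 34 tested genes in Mmp8-/- mice (purple, upper point) and Mmp8+/+ mice (green, lower point), in functional groups. Filled points passed an FDR of 5%; Iigp1, Gbp4, Cxcl9 and Gbp3 lie furthest to the left, down to -2.54 for Iigp1, and Ifitm1 furthest to the right, at 1.07 and 1.22.

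The GTPases had the lowest median change of the 7 functional groups. These proteins are induced by interferon gamma in particular and assemble on the vacuoles of intracellular bacteria and parasites, where they disrupt the membrane. All 4 tested GTPases fell in both genotypes, the median of their changes being -1.60 in Mmp8-/- mice and -1.58 in Mmp8+/+ mice. Their mean log2 signal was between 6.03 and 7.30 in arthritic Mmp8-/- mice and between 6.69 and 6.96 in arthritic Mmp8+/+ mice, against 8.37 to 8.63 in Mmp8-/- control mice and 8.42 to 8.73 in Mmp8+/+ control mice.

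Iigp1, an immunity-related GTPase that coats the vacuole of Toxoplasma, had log2 signals of 4.72, 7.57 and 6.97 in arthritic Mmp8-/- mice and 5.88, 6.64 and 6.74 in arthritic Mmp8+/+ mice, against 8.88, 8.87 and 8.99 in Mmp8-/- control mice and 8.85, 9.19 and 8.84 in Mmp8+/+ control mice. The 6 control mice were within a narrow range, while the arthritic mice were spread below it and Mmp8-/- mouse 1 was the lowest, under the filter value of 5.3. The log2 fold change was -2.50 ± 0.50 in Mmp8-/- mice (adjusted p = 0.00346) and -2.54 ± 0.50 in Mmp8+/+ mice (adjusted p = 0.00288), or 5.64-fold and 5.83-fold lower. Without arthritic Mmp8-/- mouse 1, the change in Mmp8-/- mice was -1.65 (adjusted p = 0.00101). Without the 3 doubtful control arrays, the change in these mice was -2.57 and no longer passed the test (adjusted p = 0.113).

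Gbp4 is a guanylate-binding protein, a large GTPase of the same response. Its log2 signals were 5.16, 5.55 and 5.47 in arthritic Mmp8-/- mice and 5.0, 5.52 and 5.39 in arthritic Mmp8+/+ mice, against 7.81, 7.48 and 6.98 in Mmp8-/- control mice and 7.23, 7.46 and 7.20 in Mmp8+/+ control mice. No arthritic mouse reached the lowest control mouse. It changed by -2.03 ± 0.21 in Mmp8-/- mice (adjusted p = 2.32e-05) and -1.99 ± 0.21 in Mmp8+/+ mice (adjusted p = 2.56e-05), 4.08-fold and 3.97-fold lower. The arthritic signals lay around the filter value of 5.3, about as low as Mmp8 on 5 of the 6 Mmp8-/- arrays (4.64 to 5.54). The low end of the signal range may therefore limit these sizes. Over the 23 alternatives Gbp4 kept its call in both genotypes, with changes between -2.25 and -1.59 in Mmp8-/- mice and between -2.10 and -1.84 in Mmp8+/+ mice.

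Gbp3, another guanylate-binding protein, whose promoter with 2 overlapping ISRE matches is printed above, had log2 signals of 6.89, 7.76 and 8.04 in arthritic Mmp8-/- mice and 7.79, 7.48 and 7.71 in arthritic Mmp8+/+ mice, against 8.89, 8.40 and 8.93 in Mmp8-/- control mice and 8.75, 8.94 and 8.82 in Mmp8+/+ control mice. Arthritic mice of both genotypes were below all 6 control mice. The change was -1.18 ± 0.25 in Mmp8-/- mice (adjusted p = 0.0048) and -1.17 ± 0.25 in Mmp8+/+ mice (adjusted p = 0.00443), 2.26-fold lower in each. Without the 3 doubtful control arrays, the change in Mmp8-/- mice was -1.36 and no longer passed the test (adjusted p = 0.0756).

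Irgm1 regulates the other immunity-related GTPases and protects host membranes from them. Its log2 signals were 7.37, 8.27 and 8.69 in arthritic Mmp8-/- mice and 8.08, 7.85 and 8.00 in arthritic Mmp8+/+ mice, against 8.96, 8.71 and 9.08 in Mmp8-/- control mice and 8.85, 9.33 and 8.91 in Mmp8+/+ control mice. Arthritic Mmp8-/- mouse 3 came close to the lowest control mouse of its genotype, whereas the arthritic Mmp8+/+ mice were well separated from their controls. The log2 fold change was -0.81 ± 0.26 in Mmp8-/- mice (adjusted p = 0.0413) and -1.05 ± 0.26 in Mmp8+/+ mice (adjusted p = 0.0122). The call in Mmp8-/- mice was near the threshold and was lost in 15 of the 23 alternatives. Among the arrays of these mice, it was lost without arthritic mouse 1 (-0.44, adjusted p = 0.16), without arthritic mouse 2 (-0.89, adjusted p = 0.0507), and without control mouse 1 (-0.79, adjusted p = 0.115), the array labelled control mouse 2 (-0.91, adjusted p = 0.0591) or control mouse 3 (-0.73, adjusted p = 0.103). Leaving out any of the arthritic Mmp8+/+ mice, which changes only the shared variance, also ended it (adjusted p = 0.0504 to 0.0529). In Mmp8+/+ mice, the call was lost without control mouse 2 (-0.91, adjusted p = 0.0557).

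**Figure D2:**
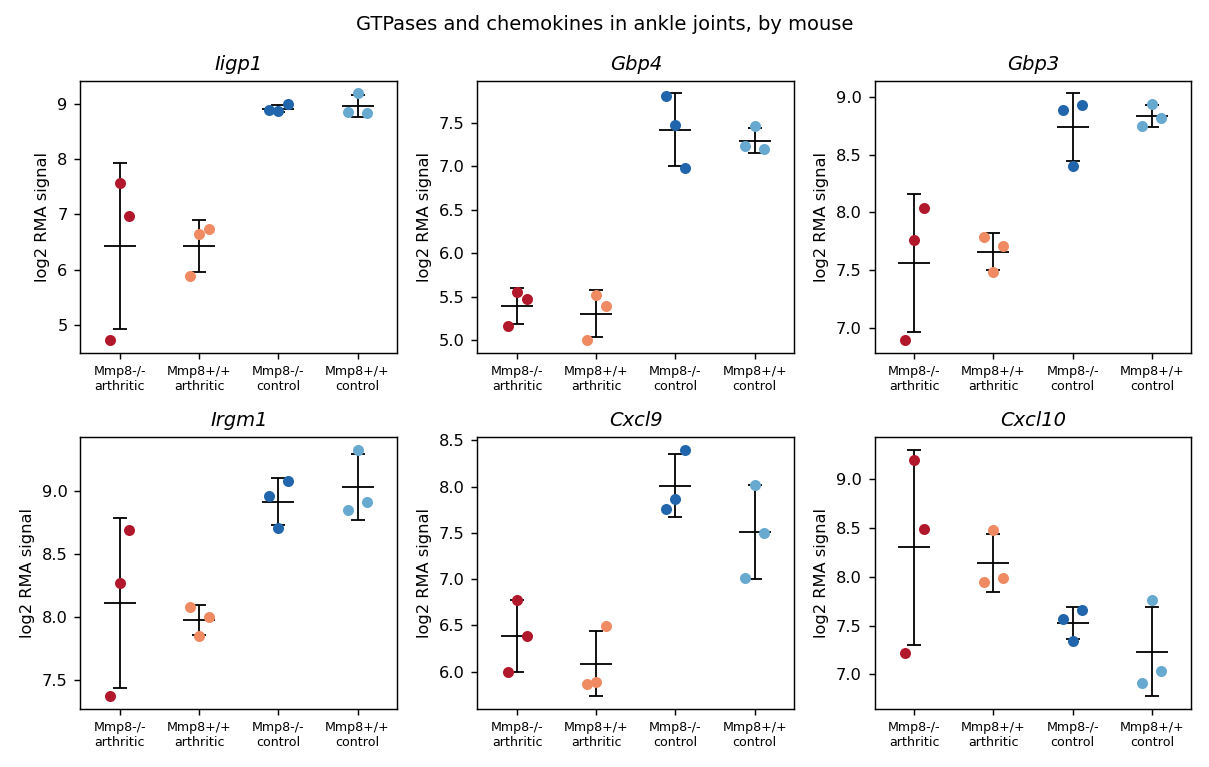
Log2 RMA signal (vertical axis, a scale for each gene) of the 4 tested GTPases and 2 chemokines in the 4 groups; points are mice and bars the mean and SD of 3 mice. For Iigp1, Gbp4, Gbp3, Irgm1 and Cxcl9 the arthritic mice of each genotype lie below their own controls, and for Cxcl10 only arthritic Mmp8-/- mouse 1, at 7.22, lies at or below its controls.

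The chemokines Cxcl9 and Cxcl10 bind the same receptor, Cxcr3, on activated T cells and natural killer cells, and they moved in opposite directions. Cxcl9, which depends mostly on interferon gamma, had log2 signals of 5.99, 6.77 and 6.38 in arthritic Mmp8-/- mice and 5.87, 5.89 and 6.49 in arthritic Mmp8+/+ mice, against 7.76, 7.87 and 8.40 in Mmp8-/- control mice and 7.01, 8.02 and 7.50 in Mmp8+/+ control mice. Arthritic mice of both genotypes were below all control mice. It changed by -1.62 ± 0.28 in Mmp8-/- mice (adjusted p = 0.00111) and -1.43 ± 0.28 in Mmp8+/+ mice (adjusted p = 0.00261), 3.08-fold and 2.69-fold lower, and kept the call in all 23 alternatives in both genotypes. Cxcl10, which also responds to type I interferons and to inflammatory signals, had log2 signals of 7.22, 9.20 and 8.49 in arthritic Mmp8-/- mice and 7.95, 8.48 and 7.99 in arthritic Mmp8+/+ mice, against 7.57, 7.34 and 7.66 in Mmp8-/- control mice and 6.91, 7.76 and 7.03 in Mmp8+/+ control mice. Arthritic Mmp8-/- mouse 2 was the highest and mouse 1 lower than every control mouse of its genotype. The difference was 0.78 ± 0.37 in Mmp8-/- mice (adjusted p = 0.14) and 0.91 ± 0.37 in Mmp8+/+ mice (adjusted p = 0.103), past the threshold in neither genotype. Averaged over genotypes Cxcl10 rose by 0.84 ± 0.26 (adjusted p = 0.0202) on the log2 scale, but not without the 2 Xist arrays (0.77, adjusted p = 0.0782).

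The Ifitm genes, which encode small membrane proteins that keep viruses from fusing with endosomes, were the only functional group in which every tested gene had a positive change in both genotypes. All 3 rose in Mmp8+/+ mice, Ifitm1 also in Mmp8-/- mice. Ifitm1 had log2 signals of 9.39, 9.71 and 9.99 in arthritic Mmp8-/- mice and 9.95, 10.01 and 9.51 in arthritic Mmp8+/+ mice, against 8.65, 8.76 and 8.47 in Mmp8-/- control mice and 8.60, 8.93 and 8.28 in Mmp8+/+ control mice. Every arthritic mouse was above every control mouse. It rose by 1.07 ± 0.21 in Mmp8-/- mice (adjusted p = 0.00278) and by 1.22 ± 0.21 in Mmp8+/+ mice (adjusted p = 0.00105), 2.10-fold and 2.33-fold. A further feature of the same symbol, with overlapping accessions but a lower mean, gave 2.13 ± 0.19 in Mmp8-/- mice (adjusted p = 6.1e-06) and 2.08 ± 0.19 in Mmp8+/+ mice (adjusted p = 5.74e-06), so that the direction was shared and the size was not. Without the 3 doubtful control arrays the call in Mmp8-/- mice was lost, with a change of 1.23 (adjusted p = 0.0745).

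Ifitm2 had log2 signals of 11.50, 12.16 and 11.83 in arthritic Mmp8-/- mice and 11.75, 12.27 and 11.76 in arthritic Mmp8+/+ mice, against 11.13, 11.55 and 11.33 in Mmp8-/- control mice and 11.04, 11.51 and 10.88 in Mmp8+/+ control mice. Arthritic Mmp8-/- mouse 1 was within the range of its controls, whereas the Mmp8+/+ groups were separate. The difference was 0.49 ± 0.22 in Mmp8-/- mice (adjusted p = 0.114) and 0.78 ± 0.22 in Mmp8+/+ mice (adjusted p = 0.0227). In Mmp8+/+ mice the call was lost without arthritic mouse 2 (0.61, adjusted p = 0.0996), control mouse 1 (0.73, adjusted p = 0.0803) or control mouse 3 (0.65, adjusted p = 0.0734).

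Ifitm3 had log2 signals of 11.66, 11.88 and 12.13 in arthritic Mmp8-/- mice and 11.91, 12.32 and 11.92 in arthritic Mmp8+/+ mice, against 11.81, 11.75 and 11.79 in Mmp8-/- control mice and 11.12, 11.67 and 10.84 in Mmp8+/+ control mice. The Mmp8-/- groups overlapped at a high level, and Mmp8+/+ control mice 1 and 3 were the lowest of the 12. The difference was 0.11 ± 0.21 in Mmp8-/- mice (adjusted p = 0.709) and 0.84 ± 0.21 in Mmp8+/+ mice (adjusted p = 0.0115). The call in Mmp8+/+ mice was lost without arthritic mouse 2 (0.70, adjusted p = 0.0558) and without the 2 Xist arrays (0.79, adjusted p = 0.0612). The Ifitm genes are close relatives, and cross-hybridisation between them cannot be told apart from signal of each gene.

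**Figure D3:**
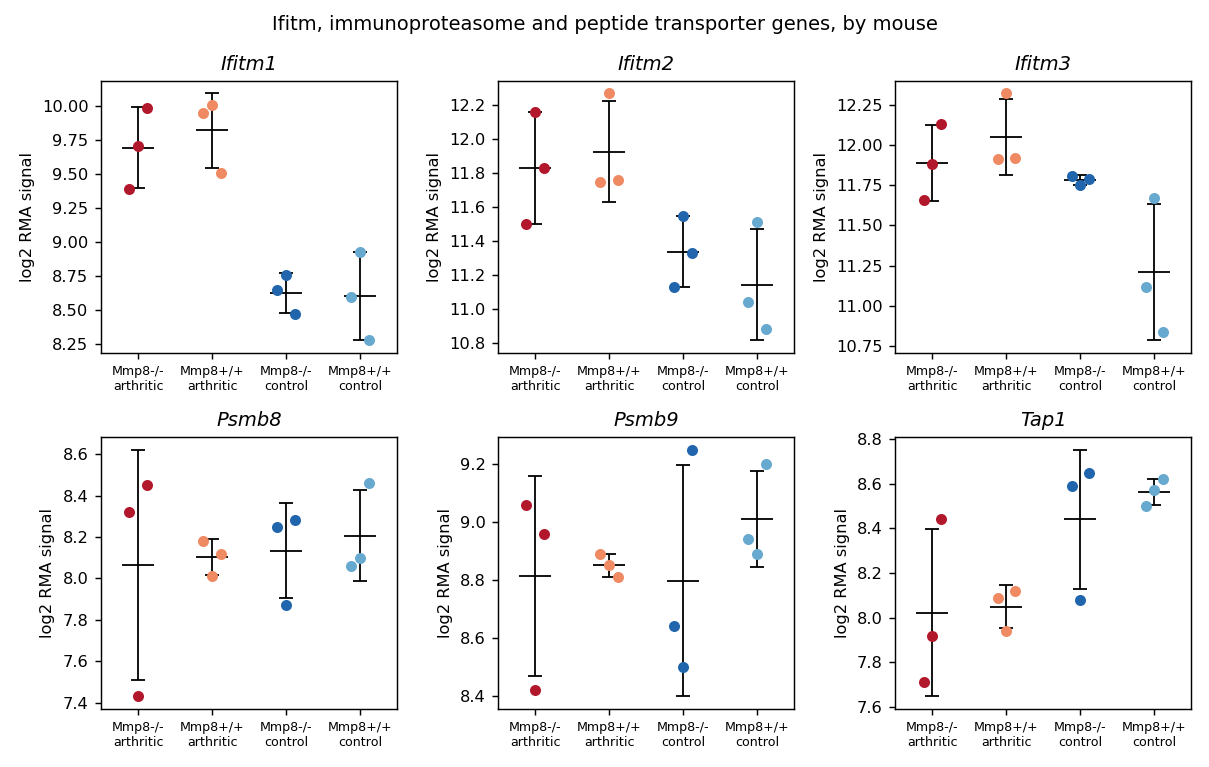
Log2 RMA signal (vertical axis, a scale for each gene) of the 3 Ifitm genes and of Psmb8, Psmb9 and Tap1 in the 4 groups; points are mice and bars the mean and SD of 3 mice. Ifitm1 is separated between arthritic and control mice, while Psmb8 overlaps between them in both genotypes.

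Of the 18 antiviral effectors 15 were tested. In Mmp8-/- mice 1 rose and 1 fell, and in Mmp8+/+ mice 1 rose and 3 fell, the median log2 fold changes being -0.16 and -0.29. These calls were 13.3% and 26.7% of the 15 genes, against 21.6% and 18.9% of all tested features. Averaged over genotypes 2 rose and 5 fell, 46.7% of the 15 genes against 42.1% of all features. Ifit2, an RNA-binding inhibitor of viral translation, had log2 signals of 6.35, 6.86 and 7.13 in arthritic Mmp8-/- mice and 6.48, 6.61 and 7.10 in arthritic Mmp8+/+ mice, against 7.63, 7.57 and 7.60 in Mmp8-/- control mice and 7.91, 7.36 and 7.31 in Mmp8+/+ control mice. Arthritic mice of both genotypes were below all control mice. The log2 fold change was -0.82 ± 0.22 in Mmp8-/- mice (adjusted p = 0.0195) and -0.80 ± 0.22 in Mmp8+/+ mice (adjusted p = 0.023). The Mmp8-/- call was lost without arthritic mouse 1 (-0.61, adjusted p = 0.0858) or control mouse 1 (-0.81, adjusted p = 0.0653), and the Mmp8+/+ call without arthritic mouse 1 (-0.67, adjusted p = 0.1), arthritic mouse 2 (-0.74, adjusted p = 0.0763) or control mouse 1 (-0.61, adjusted p = 0.114). The average over genotypes, -0.81 ± 0.16, kept its call in all 22 alternatives that could be run for it. Its relatives Ifit1 and Ifit3 passed the test in neither genotype. Ifit1, whose promoter held 2 ISRE matches, was spread from 6.37 to 7.87 in arthritic Mmp8-/- mice and from 6.89 to 7.12 in arthritic Mmp8+/+ mice, against 6.79 to 7.10 in Mmp8-/- control mice and 6.80 to 7.19 in Mmp8+/+ control mice.

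The oligoadenylate synthetase family showed the opposite sign to Ifit2. Oas2, which makes the messenger that activates RNase L, had log2 signals of 7.04, 7.67 and 7.26 in arthritic Mmp8-/- mice and 7.14, 7.54 and 7.20 in arthritic Mmp8+/+ mice, against 7.03, 6.75 and 6.68 in Mmp8-/- control mice and 6.27, 6.64 and 6.57 in Mmp8+/+ control mice. Arthritic mice were above all control mice. The difference was 0.50 ± 0.19 in Mmp8-/- mice (adjusted p = 0.0692) and 0.80 ± 0.19 in Mmp8+/+ mice (adjusted p = 0.00915), and the average of 0.65 ± 0.13 kept its call in all 22 alternatives. Without the 2 Xist arrays, the Mmp8+/+ call was lost (0.69, adjusted p = 0.0545). Oasl1, which restrains translation of Irf7 in mice, had log2 signals of 7.80, 8.09 and 8.12 in arthritic Mmp8-/- mice and 8.08, 7.96 and 7.96 in arthritic Mmp8+/+ mice, against 7.37, 7.30 and 7.71 in Mmp8-/- control mice and 7.75, 7.43 and 7.52 in Mmp8+/+ control mice. The arthritic mice were again above all control mice. It rose by 0.55 ± 0.16 in Mmp8-/- mice (adjusted p = 0.0276), and the difference was 0.44 ± 0.16 in Mmp8+/+ mice (adjusted p = 0.07). The Mmp8-/- call was lost without arthritic mouse 2 (0.50, adjusted p = 0.0631), arthritic mouse 3 (0.49, adjusted p = 0.0647), control mouse 1 (0.50, adjusted p = 0.104) or the array labelled control mouse 2 (0.47, adjusted p = 0.0986). For Oasl2 the difference was 0.21 ± 0.24 in Mmp8-/- mice and 0.59 ± 0.24 in Mmp8+/+ mice and passed the test in neither.

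Rsad2, or viperin, a radical enzyme that makes a chain-terminating nucleotide, had log2 signals of 7.20, 8.25 and 7.81 in arthritic Mmp8-/- mice and 6.96, 7.64 and 7.43 in arthritic Mmp8+/+ mice, against 7.95, 8.23 and 7.97 in Mmp8-/- control mice and 7.94, 8.17 and 8.28 in Mmp8+/+ control mice. Only in Mmp8+/+ mice were the groups separate. The difference was -0.30 ± 0.24 in Mmp8-/- mice (adjusted p = 0.367) and -0.79 ± 0.24 in Mmp8+/+ mice (adjusted p = 0.0337). The call was lost without any of arthritic mouse 1 (-0.60, adjusted p = 0.151), arthritic mouse 3 (-0.83, adjusted p = 0.0625), control mouse 1 (-0.88, adjusted p = 0.0516), control mouse 2 (-0.77, adjusted p = 0.0877) or control mouse 3 (-0.71, adjusted p = 0.0839) of these mice. Bst2, or tetherin, which holds budding virus at the cell surface, had log2 signals of 8.55, 8.47 and 8.48 in arthritic Mmp8-/- mice and 8.12, 8.33 and 8.19 in arthritic Mmp8+/+ mice, against 8.60, 8.27 and 8.47 in Mmp8-/- control mice and 8.82, 8.63 and 8.70 in Mmp8+/+ control mice. The Mmp8-/- groups overlapped and the Mmp8+/+ groups did not. The difference was 0.05 ± 0.14 in Mmp8-/- mice (adjusted p = 0.813) and -0.50 ± 0.14 in Mmp8+/+ mice (adjusted p = 0.0242), and the Mmp8+/+ call was lost without arthritic mouse 1 (-0.45, adjusted p = 0.0951), arthritic mouse 3 (-0.49, adjusted p = 0.0675) or control mouse 1 (-0.45, adjusted p = 0.0993).

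Usp18, which removes Isg15 from proteins, Rtp4, Ifi35, Xaf1, Parp9, Parp14 and Dtx3l had differences between -0.64 and -0.13 in Mmp8-/- mice and between -0.47 and -0.01 in Mmp8+/+ mice, none past the threshold. Of these genes Xaf1 (-0.49 ± 0.17) and Dtx3l (-0.50 ± 0.17), a ubiquitin ligase that pairs with Parp9, fell in the average over genotypes, as did Ifit3 (-0.44 ± 0.15) and Rsad2 (-0.54 ± 0.17). The average calls were lost without arthritic Mmp8-/- mouse 1 for Xaf1 (-0.34, adjusted p = 0.0674) and Ifit3 (-0.32, adjusted p = 0.0597), without arthritic Mmp8+/+ mouse 3 for Dtx3l (-0.49, adjusted p = 0.0501) and without arthritic Mmp8+/+ mouse 1 for Rsad2 (-0.45, adjusted p = 0.0553). Leaving out other single arrays also ended those of Xaf1 (Mmp8+/+ arthritic mice 2 and 3, Mmp8-/- control mice 1 and 3, Mmp8+/+ control mice 1 and 3, adjusted p = 0.0544 to 0.0842), Ifit3 (Mmp8+/+ arthritic mouse 3, Mmp8-/- control mouse 3, Mmp8+/+ control mouse 1, adjusted p = 0.0572 to 0.0709) and Dtx3l (Mmp8-/- control mouse 3, Mmp8+/+ control mice 1 and 2, adjusted p = 0.0552 to 0.057). Mx2, tested without the filter on signal, had a mean log2 signal of 4.58 and an average difference of -0.30 ± 0.20 (adjusted p = 0.254).

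The 4 transcription factors all had negative differences in both genotypes, with medians of -0.55 in Mmp8-/- mice and -0.33 in Mmp8+/+ mice. Irf1, an activator induced by interferon gamma whose promoter window held the GAS letters at positions 161 to 169, had log2 signals of 7.62, 7.40 and 8.31 in arthritic Mmp8-/- mice and 8.34, 8.37 and 8.12 in arthritic Mmp8+/+ mice, against 8.86, 8.58 and 8.70 in Mmp8-/- control mice and 8.62, 8.79 and 8.82 in Mmp8+/+ control mice. All 6 arthritic mice were below all control mice. It changed by -0.94 ± 0.20 in Mmp8-/- mice (adjusted p = 0.00572) and by -0.47 ± 0.20 in Mmp8+/+ mice (adjusted p = 0.116). A further feature annotated to Irf1, with a lower mean, did not share this change (0.17 ± 0.14 in Mmp8-/- mice, adjusted p = 0.388, and 0.05 ± 0.14 in Mmp8+/+ mice, adjusted p = 0.83). Without the 3 doubtful control arrays the Mmp8-/- call was lost, with a change of -0.92 (adjusted p = 0.176).

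Stat2, which carries type I interferon signals into the nucleus, had log2 signals of 7.56, 8.22 and 8.42 in arthritic Mmp8-/- mice and 8.19, 8.41 and 8.06 in arthritic Mmp8+/+ mice, against 8.88, 8.62 and 8.51 in Mmp8-/- control mice and 8.59, 8.34 and 8.18 in Mmp8+/+ control mice. The Mmp8-/- groups were separate, and the Mmp8+/+ groups overlapped. The difference was -0.60 ± 0.21 in Mmp8-/- mice (adjusted p = 0.0543) and -0.15 ± 0.21 in Mmp8+/+ mice (adjusted p = 0.642). Irf7, the amplifier of type I interferon production, had log2 signals of 8.02, 8.62 and 8.73 in arthritic Mmp8-/- mice and 8.56, 8.95 and 8.57 in arthritic Mmp8+/+ mice, against 8.99, 8.82 and 9.04 in Mmp8-/- control mice and 8.86, 9.06 and 8.88 in Mmp8+/+ control mice. Its difference was -0.49 ± 0.19 in Mmp8-/- mice (adjusted p = 0.0734) and -0.24 ± 0.19 in Mmp8+/+ mice (adjusted p = 0.378). Irf9, the DNA-binding partner of Stat2, had log2 signals of 7.91, 8.48 and 8.34 in arthritic Mmp8-/- mice and 8.33, 8.20 and 8.30 in arthritic Mmp8+/+ mice, against 8.62, 8.16 and 8.75 in Mmp8-/- control mice and 8.86, 8.63 and 8.60 in Mmp8+/+ control mice. Its difference was -0.27 ± 0.19 in Mmp8-/- mice (adjusted p = 0.3) and -0.42 ± 0.19 in Mmp8+/+ mice (adjusted p = 0.131). Averaged over genotypes, Irf1 (-0.70 ± 0.14), Irf7 (-0.37 ± 0.13) and Irf9 (-0.34 ± 0.13, adjusted p = 0.0495) fell. Irf7 and Irf9 were no longer past the threshold without arthritic Mmp8-/- mouse 1 (-0.26, adjusted p = 0.0804, and -0.26, adjusted p = 0.112). Leaving out other arrays ended the call of Irf7 for arthritic Mmp8+/+ mice 1 and 3, Mmp8-/- control mice 1 and 3 and Mmp8+/+ control mice 1 and 2 (adjusted p = 0.0555 to 0.0872), and the call of Irf9 for every array but arthritic Mmp8-/- mouse 2 and the array labelled Mmp8-/- control mouse 2 (adjusted p = 0.0527 to 0.118).

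Of the sensors, Ifih1, or MDA5, which detects long double-stranded RNA, had signals between 7.02 and 7.83 in arthritic Mmp8-/- mice and between 7.27 and 7.99 in arthritic Mmp8+/+ mice, against 7.88 to 8.32 in Mmp8-/- control mice and 8.07 to 8.37 in Mmp8+/+ control mice. Its difference was -0.60 ± 0.22 in Mmp8-/- mice (adjusted p = 0.0695) and -0.58 ± 0.22 in Mmp8+/+ mice (adjusted p = 0.0868), and the average of -0.59 ± 0.16 (adjusted p = 0.00973) passed the test. Ddx58, or RIG-I, which detects RNA with a triphosphate end, had differences of -0.10 ± 0.20 and 0.11 ± 0.20. Zbp1, which binds Z-form nucleic acid, had differences of 0.24 ± 0.17 and 0.13 ± 0.17, and these genes passed no arthritis test.

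Psmb8 and Psmb9 are catalytic subunits that replace the constitutive ones in the immunoproteasome, and Tap1 forms with Tap2 the transporter that brings peptides to class I molecules. None of the 3 passed the test in either genotype. Psmb8 had log2 signals of 8.32, 7.43 and 8.45 in arthritic Mmp8-/- mice and 8.18, 8.01 and 8.12 in arthritic Mmp8+/+ mice, against 8.25, 7.87 and 8.28 in Mmp8-/- control mice and 8.06, 8.10 and 8.46 in Mmp8+/+ control mice. Arthritic Mmp8-/- mouse 2 was the lowest, and all groups overlapped. The difference was -0.06 ± 0.23 in Mmp8-/- mice (adjusted p = 0.858) and -0.11 ± 0.23 in Mmp8+/+ mice (adjusted p = 0.767), with 95% intervals from -0.56 to 0.43 and from -0.60 to 0.39.

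Psmb9 had log2 signals of 9.06, 8.42 and 8.96 in arthritic Mmp8-/- mice and 8.89, 8.85 and 8.81 in arthritic Mmp8+/+ mice, against 8.64, 8.50 and 9.25 in Mmp8-/- control mice and 8.94, 8.89 and 9.20 in Mmp8+/+ control mice. The arthritic Mmp8+/+ mice lay at or just below the lowest of their controls. The difference was 0.02 ± 0.21 in Mmp8-/- mice (adjusted p = 0.964) and -0.16 ± 0.21 in Mmp8+/+ mice (adjusted p = 0.614), with 95% intervals from -0.43 to 0.46 and from -0.61 to 0.29. Tap1 had log2 signals of 7.71, 7.92 and 8.44 in arthritic Mmp8-/- mice and 8.09, 7.94 and 8.12 in arthritic Mmp8+/+ mice, against 8.59, 8.08 and 8.65 in Mmp8-/- control mice and 8.50, 8.57 and 8.62 in Mmp8+/+ control mice. The Mmp8-/- groups overlapped and the Mmp8+/+ groups did not. Its difference was -0.42 ± 0.20 in Mmp8-/- mice (adjusted p = 0.136) and -0.51 ± 0.20 in Mmp8+/+ mice (adjusted p = 0.083), and the average over genotypes fell by 0.47 ± 0.14 (adjusted p = 0.0165) on the log2 scale, although not without the 2 Xist arrays (-0.44, adjusted p = 0.0648). Thus Tap1 and Psmb9, which share promoter sequence, had average differences of -0.47 ± 0.14 and -0.07 ± 0.15, of which the first alone passed the test. The difference between them was not tested.

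**Figure D4:**
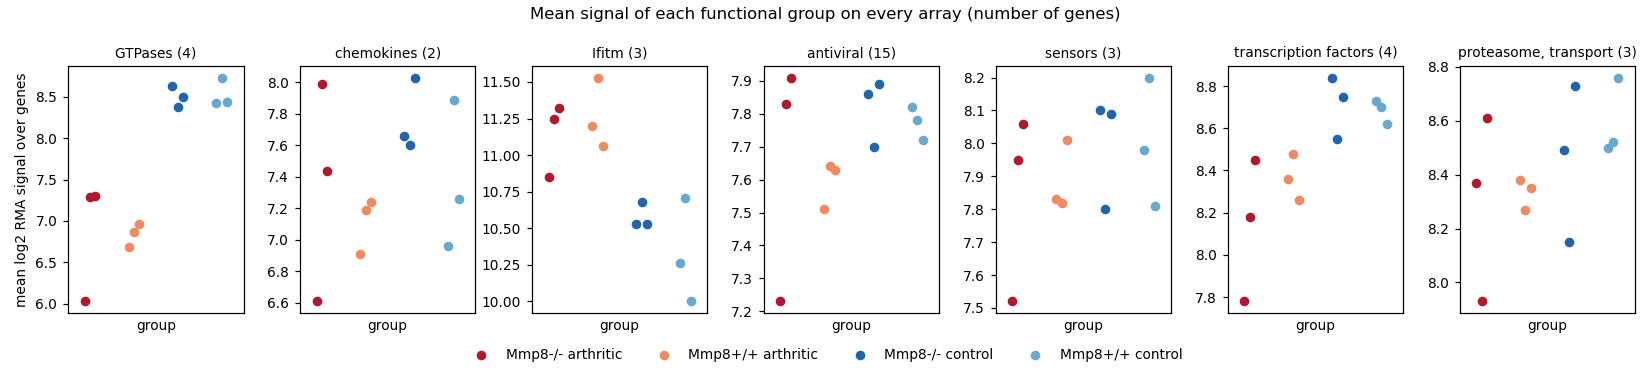
Mean log2 RMA signal over the tested genes of each functional group (vertical axis, a scale for each panel, number of genes in brackets) on the 12 arrays, 1 point for each mouse, with the groups from left to right as in the legend. Arthritic and control mice do not overlap in the GTPase, Ifitm and transcription factor panels, and arthritic Mmp8-/- mouse 1 is the lowest point of 5 panels, at 6.03 for the GTPases and 7.23 for the antiviral genes.

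The genes varied among mice of the same group, and most of all in arthritic Mmp8-/- mice. Of the 34 genes, 28 had their lowest value of this group in mouse 1, and 17 their lowest value of all 12 arrays. The same counts were not made over all features, so that low values of arthritic Mmp8-/- mouse 1 cannot be called particular to these genes. The mean log2 signal over the 34 genes was 7.56 in this mouse and 8.14 and 8.25 in the other arthritic Mmp8-/- mice, and between 7.91 and 8.04 in arthritic Mmp8+/+ mice, against 8.18 to 8.40 in Mmp8-/- control mice and 8.19 to 8.37 in Mmp8+/+ control mice. Without arthritic Mmp8-/- mouse 1, 10 genes passed the test in Mmp8-/- mice, 5 higher and 5 lower, compared with 2 higher and 7 lower when it was included, and 12.2% of all features passed, compared with 21.6%. Without arthritic Mmp8-/- mouse 3, which had the highest mean of its group, 15 passed, 1 higher and 14 lower (22.7% of all features). Without Mmp8-/- control mouse 1, 6 did (10.0% of all features). In Mmp8+/+ mice, 8 passed without control mouse 1 (11.3% of all features, compared with 18.9%).

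Direct comparison of Mmp8-/- with Mmp8+/+ mice addressed whether loss of Mmp8 changed this response. None of the 34 genes passed the test between arthritic mice, between control mice or for the interaction of genotype and arthritis, when 0.00541%, 0.0% and 0.0% of all features did (limma). The last 2 tests use the Mmp8-/- control group, which holds the array with an Mmp8 signal of 10.65. Each control group also holds 1 of the 2 Xist arrays. Mmp8 itself passed none of these tests. Between arthritic mice its signals were 4.64 to 5.54 in Mmp8-/- and 10.21 to 10.69 in Mmp8+/+ mice. The 1 feature that passed there was a keratinocyte marker. The spread was estimated over all 4 groups, so that the array labelled Mmp8-/- control mouse 2 entered the arthritic test too. The lack of a call in these tests therefore says little about loss of Mmp8. An unadjusted p under 0.05 was found for 1, 1 and 2 of the 34 genes, and for 523, 596 and 576 of the 18479 features. In arthritic mice the median difference was -0.02 and single differences ran from -0.50 to 0.41. The intervals of these differences were narrower for some genes than for others. For Gbp4 it was 0.09, with a 95% interval from -0.36 to 0.54. For Iigp1 it was 0.00, with an interval from -1.06 to 1.07. For Cxcl9 it was 0.30, with an interval from -0.29 to 0.89.

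Irf1 had the lowest difference between arthritic mice, -0.50 (95% interval from -0.93 to -0.07, adjusted p = 1.0), with overlapping groups. Bst2 was the only gene whose arthritic groups did not overlap, being between 8.47 and 8.55 in Mmp8-/- mice and between 8.12 and 8.33 in Mmp8+/+ mice (2.84% of all features were entirely above and 3.34% entirely below in this way). In control mice it was the other way round, 8.27 to 8.60 in Mmp8-/- mice and 8.63 to 8.82 in Mmp8+/+ mice, and it was the gene that was entirely below (3.82% of all features), while Ifitm3 and Oas2 were entirely above (4.0% of all features). The interaction for Bst2 was 0.55 ± 0.20 (95% interval from 0.12 to 0.98, adjusted p = 1.0). In control mice Ifitm3 had a difference of 0.57 ± 0.21 (95% interval from 0.13 to 1.01, adjusted p = 1.0), and its interaction was -0.72 ± 0.29 (95% interval from -1.34 to -0.10, adjusted p = 1.0). The different calls of Ifitm2, Ifitm3, Oas2, Rsad2, Bst2, Irf1 and Oasl1 in the 2 genotypes were therefore not shown to be differences between them.

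**Figure D5:**
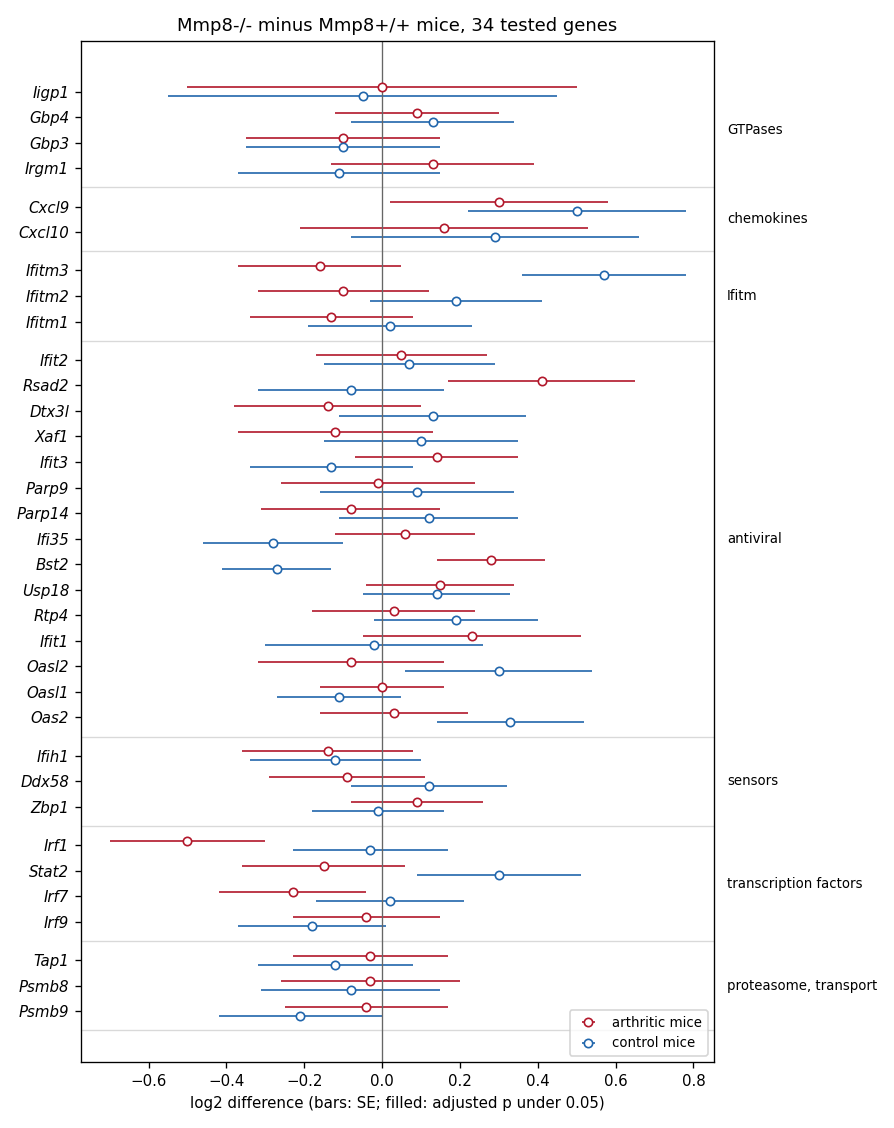
Log2 difference of Mmp8-/- minus Mmp8+/+ mice (horizontal axis, bars are SE) for the 34 tested genes in arthritic mice (red, upper point) and control mice (blue, lower point), in functional groups. All points are open, since no gene passed an FDR of 5%, and they lie between -0.50 for Irf1 and 0.57 for Ifitm3.

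Other genes of the pathway were taken from lists of interferons, receptors and signalling (25 of 32 genes tested), other antiviral genes (36 of 45), other GTPases (5 of 13), class I presentation (13 of 17) and other chemokines of the response (6 of 7). In the first list, 3 rose and 2 fell in Mmp8-/- mice and 4 rose in Mmp8+/+ mice. This was 20.0% and 16.0% of the list, near the 21.6% and 18.9% of all tested features that passed the test. Socs3, an inhibitor of cytokine receptors, rose by 1.69 (adjusted p = 7.08e-05) and 1.72 (adjusted p = 5.87e-05) on the log2 scale in Mmp8-/- and Mmp8+/+ mice. Sting1, the adaptor of cytosolic DNA sensing, rose by 0.77 (adjusted p = 0.00701) and 1.25 (adjusted p = 0.000201). Ifngr2, a chain of the receptor for interferon gamma, rose by 0.67 (adjusted p = 0.0166) and 0.63 (adjusted p = 0.0232). Of the interferons in this list, Ifna2, Ifna4, Ifnb1 and Ifnk were below the filter. Ifng was between 5.07 and 6.33 over the 12 arrays, with differences of 0.04 ± 0.28 (adjusted p = 0.924) in Mmp8-/- mice and 0.36 ± 0.28 (adjusted p = 0.38) in Mmp8+/+ mice. Ifnl2, a type III interferon, was between 6.25 and 8.55, with differences of -0.26 ± 0.35 (adjusted p = 0.608) in Mmp8-/- mice and 0.81 ± 0.35 (adjusted p = 0.123) in Mmp8+/+ mice.

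Among the other GTPases, 2 of 5 fell in each genotype and none rose. These were Gbp9, with log2 fold changes of -1.18 (adjusted p = 0.0168) in Mmp8-/- mice and -1.28 (adjusted p = 0.0111) in Mmp8+/+ mice, and Gbp5, an activator of inflammasomes, with -0.59 (adjusted p = 0.0195) and -0.68 (adjusted p = 0.00904). In the list of other antiviral genes 3 rose and 4 fell in Mmp8-/- mice and 1 rose and 2 fell in Mmp8+/+ mice, 19.4% and 8.33% of the list against 21.6% and 18.9% of all features. Slfn1, a regulator of T-cell growth, was the gene called in both, and rose by 0.76 (adjusted p = 0.0109) and 0.65 (adjusted p = 0.0231). In class I presentation, 1 rose and 2 fell in Mmp8-/- mice and 1 rose and 1 fell in Mmp8+/+ mice, 23.1% and 15.4% of the list. H2-Q4, a nonclassical class I gene, changed by -1.41 (adjusted p = 0.00198) and -1.10 (adjusted p = 0.00887), while Calr, a chaperone that loads peptide onto class I molecules, rose by 0.58 (adjusted p = 0.0168) and 0.71 (adjusted p = 0.00514). Of the 6 other chemokine genes tested, 3 rose and 1 fell in Mmp8-/- mice and 4 rose and 2 fell in Mmp8+/+ mice. Ccl7, which attracts monocytes, rose by 2.29 (adjusted p = 2.26e-06) and 2.17 (adjusted p = 2.77e-06). Ccl8 rose by 1.72 (adjusted p = 0.0101) and 3.11 (adjusted p = 0.000147), and Cxcl16 by 1.37 (adjusted p = 0.00164) and 1.87 (adjusted p = 0.000145). Cxcr3, the receptor of Cxcl9 and Cxcl10, changed by -0.49 ± 0.15 (adjusted p = 0.0383) and -0.68 ± 0.15 (adjusted p = 0.00758) and was named after its values were seen.

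Markers of several cell types also passed the arthritis test. Of all tested features 21.6% passed in Mmp8-/- mice (13.7% lower) and 18.9% in Mmp8+/+ mice (11.7% lower). Shares were near or below these for endothelial markers, neutrophil (20.0%) and keratinocyte (16.7%) markers in Mmp8-/- mice, and cartilage markers in Mmp8+/+ mice (20.0%). Those calls do not set their lists apart from other features. Shares were higher for B cell, plasmacytoid dendritic cell, adipocyte and skeletal muscle markers in both genotypes. The same held for T and natural killer cell, bone, erythroid, macrophage and synovial fibroblast markers. Cartilage markers in Mmp8-/- mice and neutrophil markers in Mmp8+/+ mice also had higher shares. For T cells and natural killer cells, 4 of 11 tested markers fell in Mmp8-/- mice and 5 fell and 1 rose in Mmp8+/+ mice, and the mean log2 signal of the list was between 6.31 and 6.33 in arthritic Mmp8-/- mice and between 6.18 and 6.40 in arthritic Mmp8+/+ mice, against 6.67 to 6.87 in Mmp8-/- control mice and 6.62 to 7.04 in Mmp8+/+ control mice. For B cells, 6 and 5 of 6 markers fell, for plasmacytoid dendritic cells 3 and 2 of 3, for adipocytes 7 and 7 of 7, and for skeletal muscle 5 and 7 of 7. Bone markers fell in 2 and 2 of 4 genes, erythroid markers in 1 and 3 of 3 and keratinocyte markers in 1 and 0 of 6. Between arthritic mice all 6 keratinocyte markers were lower in Mmp8-/- than in Mmp8+/+ mice (median difference -1.62), and 1 passed the test. Their mean was 7.68 to 8.08 in arthritic Mmp8-/- and 9.02 to 10.03 in arthritic Mmp8+/+ mice, but overlapped between control mice (7.9 to 9.75 and 8.04 to 9.61). Tissue content and genotype thus cannot be told apart between the arthritic groups. Of 8 endothelial markers 2 fell in Mmp8-/- mice, and 1 rose and 1 fell in Mmp8+/+ mice. Of 5 cartilage markers 2 rose and 1 fell in Mmp8-/- mice and 1 rose in Mmp8+/+ mice, and of 6 synovial fibroblast markers 2 rose and 1 fell in Mmp8-/- mice and 3 rose in Mmp8+/+ mice. Of 9 macrophage markers 2 rose and 1 fell in each genotype, and the mean of the list overlapped, being between 9.78 and 10.37 in arthritic Mmp8-/- mice and between 9.96 and 10.20 in arthritic Mmp8+/+ mice, against 9.93 to 9.99 in Mmp8-/- control mice and 9.75 to 10.03 in Mmp8+/+ control mice. Of 10 neutrophil markers 2 rose in Mmp8-/- mice, and 2 rose and 2 fell in Mmp8+/+ mice, and their mean was between 10.06 and 10.67 in arthritic Mmp8-/- mice and between 10.40 and 10.88 in arthritic Mmp8+/+ mice, against 9.68 to 10.73 in Mmp8-/- control mice and 10.58 to 10.89 in Mmp8+/+ control mice. The part of these cell types in the changes of the interferon response genes was not tested.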

How the data were processed

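RNA of ankle joints from 12 mice, 3 in each of 4 groups, was hybridised to the Affymetrix Mouse Gene 1.0 ST array. The authors deposited log2 values that had been background corrected, quantile normalised and summarised per feature by RMA, and the submitters' processing notes also name Partek. Features were named from the platform annotation, in which 21789 of the 28853 features had 1 symbol, 1621 had several and 5443 had no symbol, and 21698 of the first matched RefSeq. The 18479 named features with a mean log2 signal of at least 5.3 were tested, about as many as the study kept. Groups were compared by limma 3.58.1 (R 4.3.3) in a model with a mean for each group, 8 residual degrees of freedom, no covariate, two-sided tests and Benjamini-Hochberg adjustment over all tested features at 5%. Errors of differences are SE. Replicates are separate mice, and their number limits the precision. RMA could not be repeated from these values, and quantile normalisation would lessen a shift shared by most genes.

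The genes, their functional groups and the pathway and marker lists were chosen with earlier results of these data known. Values of every mouse are given for genes past 5% in a comparison within 1 genotype and for all transcription factor, Ifitm, chemokine, immunoproteasome and transporter genes, and other pathway genes are named if past 5% in both genotypes, up to 3 for each list. The code was tested on simulated data. There were 23 alternatives, of the variance model, the filter, the scaling, the feature of a gene and the arrays included.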

Additional observations from a re-analysis of the deposited data

How the results depend on the processing

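Each array was of a separate mouse and no pairing of mice between groups is described, so that no paired analysis was made. The labels give the group alone, and mice are numbered here in the order of the samples in the series. The number of interferon response genes past 5% was 9 in Mmp8-/- mice, 12 in Mmp8+/+ mice and 21 in the average over genotypes. Leaving out 1 array at a time gave 6 to 15, 8 to 16 and 16 to 23 genes. Without the 2 Xist arrays the counts in Mmp8+/+ mice and in the average were 6 and 13. Without these and the array labelled Mmp8-/- control mouse 2 they were 2 in Mmp8-/- mice, 6 in Mmp8+/+ mice and 11 in the average, when 2.62%, 9.28% and 14.6% of all features passed. The other changes of variance model, filter, scaling and feature kept each count within 1.5 times. The counts for genotype and for the interaction were 0 in every alternative run. With the feature of lower mean, Irf1 changed sign, to 0.17 in Mmp8-/- mice and 0.11 in the average. Over the 42 calls of a gene in a comparison, 806 of 944 alternative values kept the call, 136 lost it and 2 changed sign. Over the 162 comparisons of a gene without a call, 46 of 3638 alternative values passed the threshold. The causes were not tested. With 3 mice in each group, small differences of genes below the filter, such as Mx2 and Ifnb1, are not detectable on these arrays.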
